A study of Rattus norvegicus with 2 samples.

Results

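The genes described here are 39 genes whose main products are plasma proteins and clotting factors of hepatocytes, among them albumin, the fibrinogen chains, the prothrombin gene F2 and the inter-alpha-trypsin inhibitor heavy chains. They were chosen by the lower signals of liver products in the aneurysm library of these same arrays, so every value below describes them and tests nothing. The arrays paired 15159 genes with a probe. Of the 39 genes, 38 had a matched probe; Itih2 had none and was not analysed here. On neither array were Proc and Serpina6 well above background, which left 36 genes, of 11902 with a value in all. One library came from untreated rat intracranial arterial wall and the other from an aneurysm lesion 3 weeks after induction, each on 1 one-colour Agilent array. The labels give no strain, sex, age, way of induction or number of animals per library. With 1 array per group there was no replicate, so no test across samples was possible and each difference compares these libraries only.

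Hepatocytes make most of the protein of blood plasma and secrete it continuously. The set includes carriers of hormones, vitamins, iron and heme, the zymogens of the clotting cascade that end in thrombin and fibrin, and inhibitors that keep plasma proteases in check. Healthy artery is bathed in these proteins but is not known as a main site of their synthesis. Several are also made outside the liver, such as transferrin in oligodendrocytes, transthyretin in choroid plexus epithelium and protein S in endothelium.

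Levels are log2 processed spot intensities relative to each array's 75th percentile, which stands at 0. A difference is the aneurysm level minus the control level. The figure that follows ± is an error from repeat spots of similar brightness, and holds no variation between animals. A gene that cleared the background on the control array alone has a bound, taken against the higher of its own dim level and the lowest level well above background on the aneurysm array (-6.86). The error printed beside a bound is that of the gene's own levels on both arrays, also where this floor sets the bound. Levels of different genes come from different probes and are not compared. All 6 contractile smooth muscle markers and all 6 endothelial markers were detected on both arrays; their median differences were 0.13 and 0.11. Spots well above background made up 74.7% of the control array and 76.4% of the aneurysm array, with 0 saturated spots. In bulk tissue, fewer cells of a type and less RNA per cell cannot be told apart.

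Of the 36 measured members, 30 were at least 2-fold lower in the aneurysm library, 6 differed by less than 2-fold and 0 were at least 2-fold higher. Over all genes 3.91% were at least 2-fold lower and 0.882% at least 2-fold higher. These background shares move with the scaling: 465 genes were lower and 105 higher here, against 332 and 311 with spike-in scaling, 406 and 165 with quantile normalization and 213 and 16 with normexp background correction. The median difference of the members was -3.87, and that of all genes was 0.001. Of the 30 lower members, 19 cleared the background on both arrays (2.11% of all such genes were at least 2-fold lower) and 11 on the control array alone. At 1.5-fold 32 members were lower, where 8.43% of all genes were. In 33 of the 36 members every control spot lay above every aneurysm spot after scaling. The same count was not made over all genes, and it includes differences as small as that of Lcat (-0.30), so it does not set the members apart.

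At the far end, 11 members were at least 32-fold lower (0.235% of all genes), with folds from 32.3 for Hp to 62.2 for Hrg. A further 12 lay between 8-fold and 32-fold, and none lay between 4-fold and 8-fold. In all, 17 were at least 16-fold lower (0.504% of all genes) and 23 at least 4-fold lower (1.5% of all genes). Another 7 lay between 2-fold and 4-fold, which were F12, Kng1, Cpb2, Itih3, Ttr, Azgp1 and Tf. Among the 10 lowest differences of all genes 6 belonged to members, and among the 100 lowest 23 did. These larger folds depend on the background correction. With normexp, whose offset of 50 shrinks differences of dim genes, 1 member (Alb, -5.25) was at least 32-fold lower, 5 were at least 16-fold lower, and 5 lay between 4-fold and 8-fold, where the values above leave a gap. At 2-fold 28 of the 30 remained lower; Cpb2 (-0.55) and Kng1 (-0.90) did not. For 13 members the difference given here is over 1.5 times as large as with normexp. Besides Cpb2 and Kng1 these were Fga (-2.65), Fgg (-2.18), F9 (-1.52), Hrg (-3.15), Serpina3c (-3.30) and Itih1 (-1.90), each with its normexp value. The others were Fetub (-2.60), Afm (-1.37), Gc (-3.53), Orm1 (-1.04) and Apoh (-2.17). Under some alternative 4 members lost the 2-fold call, Cpb2 and Kng1 with normexp, Orm1 (-0.99) with normexp on the median signals and Itih3 (-0.90) with spike-in scaling.

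**Figure D1:**
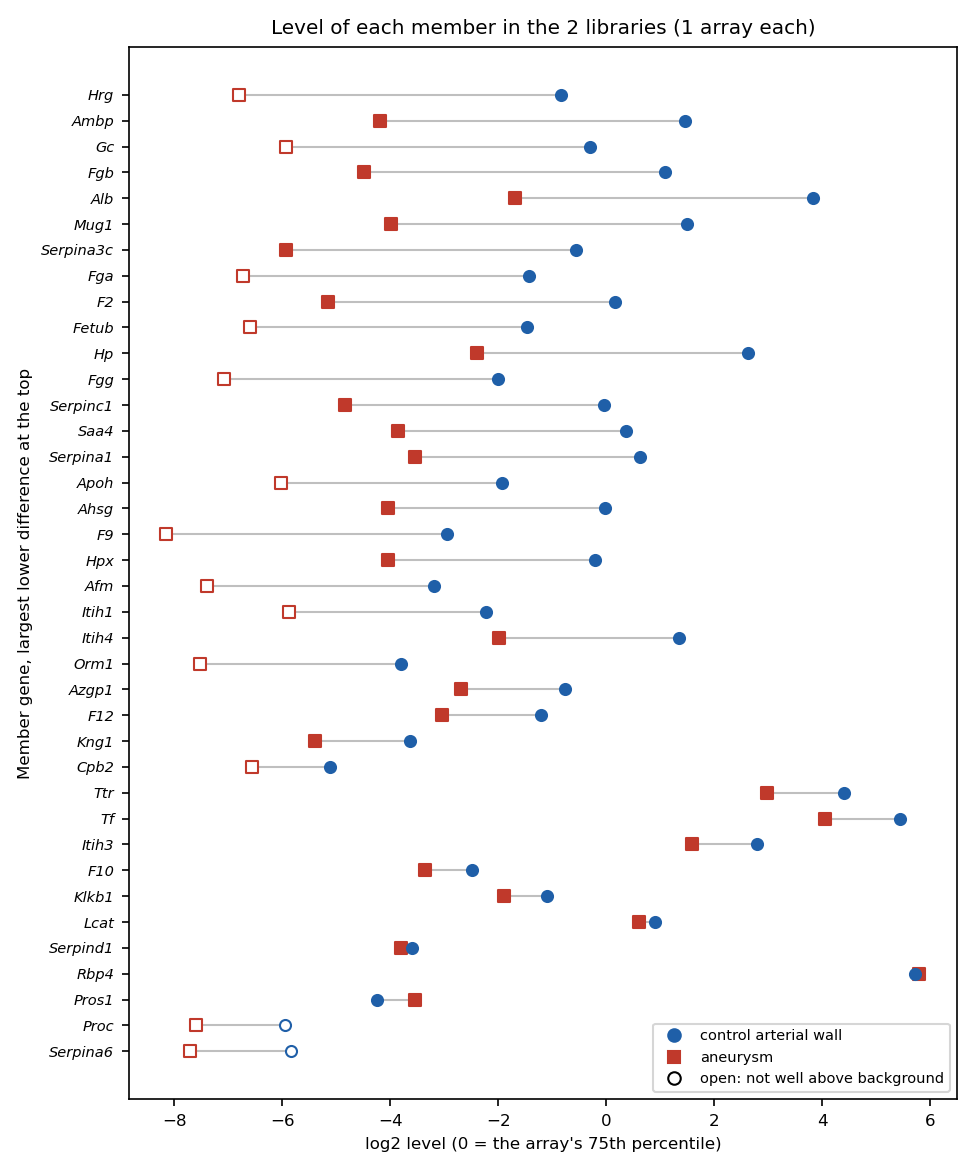
Log2 level of the 38 members with a probe in the control (blue circles) and aneurysm (red squares) library, in order of the difference, 1 array per library; open symbols were not well above background. The upper rows show long gaps, such as 3.82 against -1.69 for Alb, while Rbp4 lies at 5.72 and 5.80.

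**Figure D2:**
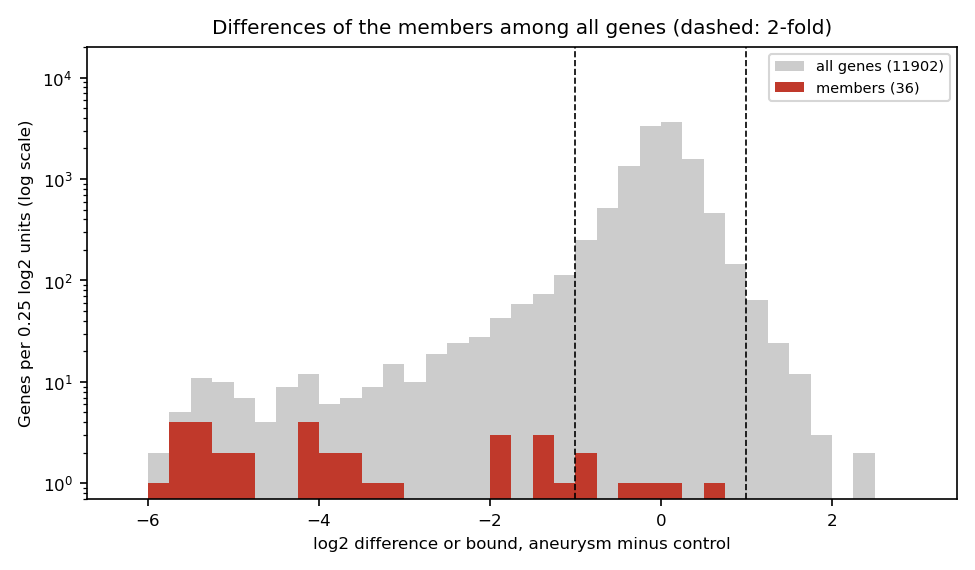
Number of genes per 0.25 log2 units of difference or bound (x axis, aneurysm minus control; y axis, log scale) for all 11902 genes (grey) and the 36 members (red); dashed lines mark 2-fold. Of the members 30 lie left of the lower line, and 0 lie right of the upper one.

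Promoter sequence was available for 30 of the 39 members in a RefSeq table of assembly GRCr8. The 250 bases before each start were searched on both strands for motifs of liver-enriched factors and for the TATA box, which is not one of these. The C/EBP motif TTGCNNAA was found in 14 of the 30 (46.7%) and in 9.20% of all 27456 promoters of the same length. Less common were the HNF4 motif CAAAGTCCA with up to 1 mismatch in 5 (16.7%, against 7.08%), the FOXA motif TGTTTAC in 5 (16.7%, against 3.25%) and the TATA box letters TATAAA in 6 (20%, against 13.1%). Over the 9704 promoters of genes with a value the shares were 8.40% for C/EBP, 6.37% for HNF4, 2.12% for FOXA and 8.12% for TATA. No share was adjusted for base composition. At least 1 of these 4 motifs was found in 21 of the 30, in Fgg and Itih3 the TATA box alone. Among the 23 promoters of lower members C/EBP was found in 47.8%, HNF4 and FOXA in 17.4% each and TATA in 21.7%. For the 5 of members under 2-fold these shares were 40%, 20%, 20% and 20%. A match describes these letters only, not a bound site. Motifs were chosen with the results known, and no test was made.

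The promoters of 6 genes are shown, 5′ to 3′ on the strand of the gene, to set 4 members over 32-fold lower beside 2 members under 2-fold. Capitals mark motif matches, none of which overlap. Those of the lower members are Alb, chr14:17906980-17907229 (- strand), Fga, chr2:170671919-170672168 (+ strand), Fgb, chr2:170700876-170701125 (- strand) and F2, chr3:98065247-98065496 (- strand). Those of the others are Rbp4, chr1:245313552-245313801 (- strand) and Pros1, chr11:13677049-13677298 (+ strand), all in GRCr8.
Alb: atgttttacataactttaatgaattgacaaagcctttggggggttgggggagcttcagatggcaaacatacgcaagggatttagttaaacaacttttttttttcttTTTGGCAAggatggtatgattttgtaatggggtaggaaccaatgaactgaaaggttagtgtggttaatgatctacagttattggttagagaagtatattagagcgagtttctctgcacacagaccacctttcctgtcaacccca
Fga: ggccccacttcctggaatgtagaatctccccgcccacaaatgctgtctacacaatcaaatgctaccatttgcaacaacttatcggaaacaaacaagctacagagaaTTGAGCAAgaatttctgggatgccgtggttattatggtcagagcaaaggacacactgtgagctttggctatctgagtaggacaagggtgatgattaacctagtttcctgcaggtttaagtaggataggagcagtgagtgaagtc
Fgb: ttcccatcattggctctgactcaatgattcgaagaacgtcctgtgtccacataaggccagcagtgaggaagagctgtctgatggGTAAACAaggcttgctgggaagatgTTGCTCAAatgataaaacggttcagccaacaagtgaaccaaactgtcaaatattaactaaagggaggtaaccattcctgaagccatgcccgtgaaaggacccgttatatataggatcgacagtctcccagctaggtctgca
F2: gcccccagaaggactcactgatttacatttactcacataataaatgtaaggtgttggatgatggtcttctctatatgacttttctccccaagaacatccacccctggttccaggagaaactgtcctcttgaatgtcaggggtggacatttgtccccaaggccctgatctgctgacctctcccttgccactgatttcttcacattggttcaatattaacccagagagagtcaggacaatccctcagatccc
Rbp4: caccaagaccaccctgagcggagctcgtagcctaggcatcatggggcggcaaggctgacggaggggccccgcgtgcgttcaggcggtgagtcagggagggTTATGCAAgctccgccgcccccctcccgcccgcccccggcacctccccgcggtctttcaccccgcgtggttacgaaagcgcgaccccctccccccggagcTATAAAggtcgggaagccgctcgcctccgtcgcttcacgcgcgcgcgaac
Pros1: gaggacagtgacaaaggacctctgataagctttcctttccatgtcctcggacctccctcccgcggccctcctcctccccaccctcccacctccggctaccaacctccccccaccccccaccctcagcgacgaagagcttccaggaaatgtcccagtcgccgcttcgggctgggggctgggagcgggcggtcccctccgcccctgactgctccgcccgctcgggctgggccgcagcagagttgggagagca

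The C/EBP motif stood at -144 to -137 in Alb and in Fga and at -141 to -134 in Fgb. Fgb also held a FOXA match, and the window of F2 held none of the 4 motifs. The promoters of Rbp4 and Pros1 were rich in G and C (70.8% and 68.4%), with 31 and 16 CpG dinucleotides. Rbp4 held a C/EBP and a TATA match, and Pros1 held none of them. Over the 23 lower members with a promoter the median GC content was 47.6% (range 38.8% to 58.4%) with a median of 3 CpG, against 52% and 6 over all 27456 promoters and 59.2% and 15 over the 9704 promoters of genes with a value. Among the 5 members under 2-fold with a promoter, Klkb1 (46.4%, 3 CpG) was within the range of the lower members, as were F10 and Lcat (57.6% each).

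The 3 fibrinogen chains, which assemble into the protein that thrombin cuts to form fibrin, were all lower. Fgb, the beta chain, read 1318 and 1334 on its control spots and 31.8 and 40.0 on its aneurysm spots, a difference of -5.59 ± 0.17. Fga, the alpha chain, was at -1.42 and -6.73, which gave a bound of -5.31 ± 0.47. Fgg, the gamma chain, was at -1.99 and -7.08, with a bound of -4.87 ± 0.55. Only Fgb was still well above background in the aneurysm library. For Fgg the bound is set by the floor of that array, which allows a difference of at most 4.87 for this control level.

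The vitamin K-dependent proteins, zymogens and cofactors that need gamma-carboxylation to bind membranes, were split. F2, which encodes prothrombin, was at 0.16 in control wall and -5.15 in the aneurysm (-5.30 ± 0.24). F9, which encodes factor IX of the intrinsic pathway, rested on 1 spot per array, at -2.94 and -8.14, with a bound of -3.92 ± 0.25. The floor sets this bound, while the error comes from other probes and belongs to the difference without the floor, -5.20. F10, whose product activates prothrombin, was at -2.49 and -3.35, so that its difference of -0.86 ± 0.16 stayed under 2-fold. Pros1, which encodes protein S, the cofactor of activated protein C, went the other way. Its levels were -4.24 and -3.55, a difference of 0.69 ± 0.37 that was 0.18 with normexp and 0.99 with spike-in scaling. Proc, protein C itself, had 10 spots per array with intensities up to 17.4 in control wall and up to 5.69 in the aneurysm, none of them well above background, and received no value. The enzymes of the vitamin K cycle, Ggcx (0.01), Vkorc1 (0.05) and Vkorc1l1 (0.07), and the propeptide protease gene Furin (-0.16), differed little, and with Nqo1 0 of the 5 genes of that list reached 2-fold in either direction.

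The contact system, which starts clotting on negatively charged surfaces and releases bradykinin, differed less than fibrinogen. F12, which encodes factor XII, was at -1.21 in control wall and -3.03 in the aneurysm (-1.82 ± 0.11). Kng1, which encodes the kininogen that carries bradykinin, was at -3.63 and -5.40 (-1.77 ± 0.34). Rat kininogen genes are close copies, so this value is uncertain as to gene. Klkb1, plasma prekallikrein, was at -1.10 and -1.88 and under 2-fold (-0.78 ± 0.09).

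Among regulators of thrombin and fibrinolysis, 3 of 4 were at least 2-fold lower. Hrg, histidine-rich glycoprotein, which binds heparin and plasminogen, had the lowest value of all 11902 genes on this scale, though with normexp it was at -3.15, above Alb (-5.25), Hp (-4.62) and Ambp (-4.61). It was at -0.83 in control wall and -6.79 in the aneurysm, where its 2 spots read 6.48 and 8.09 against 344 and 354 in the control, a bound of -5.96 ± 0.47. Serpinc1 encodes antithrombin, the main plasma inhibitor of thrombin and factor Xa; its levels were -0.03 and -4.83 (-4.80 ± 0.18). Cpb2, a carboxypeptidase that slows fibrinolysis, was dim already in the control library (-5.11, against -6.56). Its bound of -1.44 ± 0.66 lay near the largest difference that the floor allows for its control level, 1.75. Serpind1, heparin cofactor II, another thrombin inhibitor, was measured by 10 spots per array. These spots read 39.8 to 71.8 in control wall and 52.5 to 67.1 in the aneurysm, at mean levels of -3.60 and -3.80, so that the libraries overlapped and the difference was -0.20 ± 0.12 (0.11 with spike-in scaling).

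All 7 measured genes of the other protease inhibitors were at least 2-fold lower. Ambp, the precursor of alpha-1-microglobulin and of bikunin, was at 1.47 in control wall and -4.18 in the aneurysm (-5.65 ± 0.13, 50.2-fold). Mug1, a murinoglobulin that traps proteases, was at 1.51 and -3.98 (-5.48 ± 0.13), and Serpina3c, of the antichymotrypsin group, was at -0.55 and -5.92 (-5.37 ± 0.34). Both have close copies in the rat, so their values are uncertain as to gene, and Serpina3c was well above background at 1 of its 2 aneurysm spots. Serpina1, alpha-1-antitrypsin, the inhibitor of neutrophil elastase, was at 0.63 and -3.54 (-4.17 ± 0.11). The heavy chains that are joined to bikunin and stabilise hyaluronan matrix spread widely. Itih1 was at -2.23 and -5.87 (bound -3.64 ± 0.35). Itih4, an acute phase relative of the heavy chains, was at 1.36 and -1.98 (-3.34 ± 0.07). Itih3 was high in both libraries, at 2.80 and 1.59, and differed by -1.20 ± 0.06 (-0.90 with spike-in scaling).

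The fetuins, cystatin-related proteins, were both lower. Ahsg, fetuin-A, which keeps calcium phosphate in solution, was at -0.02 in control wall and -4.05 in the aneurysm (-4.03 ± 0.14). Fetub was at -1.47 and -6.60, with a bound of -5.13 ± 0.47.

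Of 7 measured carriers of lipids, hormones and vitamins, 6 were at least 2-fold lower. Alb, serum albumin, read 8566 and 9016 on its control spots and 245.9 and 249.7 on its aneurysm spots; its levels of 3.82 and -1.69 give -5.52 ± 0.07. Gc, the vitamin D binding protein, was at -0.29 and -5.93 (bound -5.63 ± 0.34). Afm, afamin, a vitamin E carrier of the albumin family, was at -3.19 and -7.39, and its bound of -3.67 ± 0.56 is set by the floor. Orm1, the acute phase glycoprotein orosomucoid, was at -3.80 and -7.52 with a bound of -3.06 ± 0.59, also set by the floor. With normexp on the processed and on the median signals it was at -1.04 and -0.99, the second under 2-fold. These 4 were the carriers lower by more than 8-fold. Azgp1, zinc-alpha-2-glycoprotein, was at -0.75 and -2.68 (-1.93 ± 0.11). Ttr, transthyretin, carrier of thyroxine and of the retinol binding protein, was high in both libraries at 4.41 and 2.99 (-1.42 ± 0.05). Rbp4, that retinol binding protein, was at 5.72 and 5.80, a difference of 0.08 ± 0.05 (0.39 with spike-in scaling). The cortisol and corticosterone carrier Serpina6 had 2 spots per array, at levels of -5.83 and -7.70, and no value because neither array was well above background.

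The iron, heme and hemoglobin carriers were lower to different extents. Hp, haptoglobin, which binds free hemoglobin, was at 2.62 in control wall and -2.39 in the aneurysm (-5.01 ± 0.08). Hpx, hemopexin, which binds free heme, had 1 spot per array, at -0.21 and -4.04 (-3.83 ± 0.19). Tf, transferrin, stayed high at 5.45 and 4.06 (-1.39 ± 0.05). Among receptors that clear these proteins, picked here after their values were seen, the transferrin receptor gene Tfrc was at -0.04, the haptoglobin-hemoglobin receptor gene Cd163 at 0.65 and the hemopexin receptor gene Lrp1 at 0.18.

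Proteins bound to lipoproteins or phospholipid completed the set. Saa4, constitutive serum amyloid A, was at 0.38 in control wall and -3.86 in the aneurysm (-4.23 ± 0.13). A dimmer probe of the same gene gave a bound of -2.54 ± 0.65. Apoh, beta-2-glycoprotein I, which binds anionic phospholipid, was at -1.92 and -6.03 (bound -4.11 ± 0.35). Lcat, the enzyme that esterifies cholesterol on high-density lipoprotein, was at 0.92 and 0.62, a difference of -0.30 ± 0.06 that turned to 0.01 with spike-in scaling.

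Some members are known as positive acute phase proteins, whose synthesis in liver goes up in inflammation, and others as negative ones, whose synthesis goes down. The 9 positive members (Fga, Fgb, Fgg, Hp, Hpx, Orm1, Serpina1, Itih3 and Itih4) were all at least 2-fold lower, with a median of -4.17 and a range from -5.59 to -1.20. Of the 5 measured negative members, Alb, Ahsg, Ttr and Tf were lower and Rbp4 was not, with a median of -1.42 and a range from -5.52 to 0.08. Of the 22 measured members put in neither class here, 17 were at least 2-fold lower and 5 were under 2-fold. Their median was -3.80, nearer to that of the positive members, with a range from -5.96 to 0.69. Large lower values were thus not particular to the positive members. The ranges overlapped. Genes of acute phase signalling differed little: 0 of 10 measured genes reached 2-fold in either direction and their median was 0.08 (-0.01 to 0.39 over the alternatives), with Cebpd at 0.63, Cebpb at 0.51, Socs3 at -0.43 and Il6st at 0.36. Il6 itself was below that mark on both arrays.

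Markers of other cells that make transferrin and transthyretin were read beside them. Of 9 oligodendrocyte markers, all well above background on both arrays, 6 were at least 2-fold lower, among them Mobp (-1.30), Opalin (-1.26) and Mog (-1.14), and the median was -1.13. The summed linear level of that list, in multiples of the array's 75th percentile, was 169 in control wall and 86.3 in the aneurysm, but Mbp (-0.96) alone made up 90.7% of it in control wall; the other 8 genes summed to 15.7 and 7.53. Its part in the difference of Tf was not tested. Of 8 choroid plexus markers, 6 had a value and 1, Otx2 (-1.08), was at least 2-fold lower; Slc4a5 (bound 0.54), Folr1 (0.33) and Kcne2 (-0.31) were under 2-fold, and Clic6 and Tmem72 were not above background on either array. The summed level of that list was 4.38 and 4.29, of which Kcnj13 (-0.02) made up 90.4% in control wall; the others summed to 0.418 and 0.394. Its part in the difference of Ttr was not tested.

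**Figure D3:**
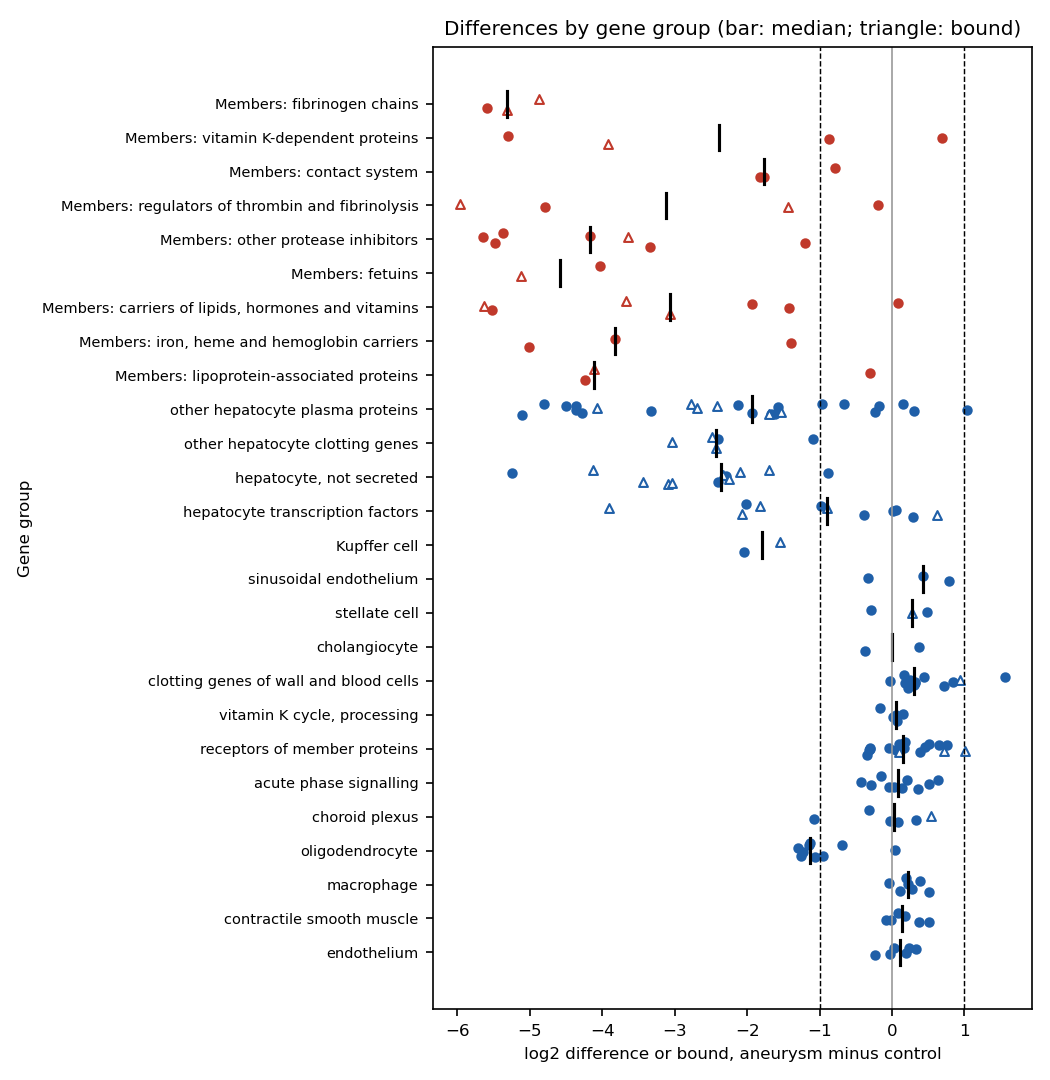
Log2 difference or bound (x axis, aneurysm minus control) of each measured gene in 9 groups of members (red) and 17 other lists (blue); black bars are medians, triangles are bounds and dashed lines mark 2-fold. Fibrinogen chains have a median of -5.31, hepatocyte markers that are not secreted -2.37, and clotting genes of wall and blood cells 0.31.

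Other products of hepatocytes, from lists written with earlier results known, also had large lower values. Of 25 measured genes of other plasma proteins, 18 were at least 2-fold lower, with a median of -1.94; with normexp these were 11 and -0.93. The lowest were Serpina3n (-5.10), which has close copies, and the apolipoprotein genes Apoc3 (-4.81), Apoa2 (-4.50) and Apoa1 (-4.37). All 5 measured genes of a further list of hepatocyte clotting and fibrinolysis proteins were at least 2-fold lower, which were Serpina10 (bound -3.03), Habp2 (bound -2.49), Hgfac (bound -2.43), Serpinf2 (-2.40) and Plg (-1.09). Plg, which encodes plasminogen, the precursor of the enzyme that dissolves fibrin, had 10 spots per array, at 0.42 in control wall and -0.67 in the aneurysm. With spike-in scaling Plg was at -0.78, and with normexp Habp2 and Hgfac were at -0.79 and -0.77, under 2-fold in each case. The median of these 5 genes was -2.43, and -1.02 with normexp.

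Hepatocyte markers that are not secreted were lower as well, 11 of 12 measured genes by at least 2-fold, with a median of -2.37; with normexp these were 8 genes and -1.16. Among them were Hpd, an enzyme of tyrosine breakdown (bound -4.13), Hal, which starts histidine breakdown (bound -3.43), and the cytochrome P450 gene Cyp2e1 (bound -3.09). In the control library 12 of 14 genes with a probe were well above background, and in the aneurysm library 4; Cps1 and Tat were not on either array. The summed level of the list was 5.12 and 0.968, of which 1 gene made up 50.1% in control wall; the others summed to 2.55 and 0.900. Its part in the differences of the members was not tested.

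Transcription factors of hepatocytes were dim, and 4 of 11 measured genes were at least 2-fold lower (2 with normexp). They included Creb3l3 (bound -3.91), Onecut1 (bound -2.07) and Nr1i2 (-2.01); with normexp Onecut1 was at -0.64. Of genes named after their values were seen, Cebpa, a regulator of the albumin gene, was at 0.01 ± 0.52 and Hnf4a, seen in the aneurysm library only, had a bound of 0.62 ± 0.67. Foxa2, Foxa3, Nr5a2 and Prox1 were not well above background on either array.

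Markers of the other cells of liver were mixed. Of the Kupffer cell markers, Clec4f was at -2.04 ± 0.18 over 10 spots and Vsig4 had a bound of -1.55 ± 0.59 (-0.87 and -0.71 with normexp), while Marco and Cd5l were not above background on either array. No measured marker of sinusoidal endothelium (Lyve1 at 0.78, Fcgr2b at 0.43, Dnase1l3 at -0.33), of stellate cells (Ecm1 at 0.49, Reln at -0.29, Hgf with a bound of 0.28) or of cholangiocytes (Krt19 at 0.38, Krt7 at -0.37) reached 2-fold in either direction, except that Lyve1 was at 1.09 with spike-in scaling. Oit3, Lrat, Epcam and Cftr were not above background on either array. Timd4, Stab2, Clec4g, Colec11 and Sox9 had no matched probe. Whether the signals of the measured markers came from liver cells or from other cells was not tested. Summed levels were 0.111 and 0.0316 for Kupffer cells, 1.33 and 1.90 for sinusoidal endothelium, 5.58 and 7.72 for stellate cells and 0.554 and 0.659 for cholangiocytes, control wall first. In control wall 1 gene made up most of each sum, Clec4f 62.3%, Fcgr2b 65.7%, Ecm1 96.8% and Krt19 82.9%. Kidney markers were under 2-fold in all 3 measured genes (Slc22a6 at -0.30, Aqp2 at -0.17, Umod at -0.05). Among intestinal markers Apoa4, which rat liver also makes, was at -4.82, and Alpi (-0.12) and Vil1 (bound 0.09) were under 2-fold. No adipocyte marker was above background on either array. Erythrocyte and platelet markers had a median of -0.63, with 0 of 6 genes at 2-fold and Hba-a1 at -0.95, and macrophage markers a median of 0.22.

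Clotting and fibrinolysis genes of the vessel wall and blood cells did not share the lower values. None of 14 measured genes was at least 2-fold lower, 13 were above 0 and the median was 0.31 (0.22 to 0.61 over the alternatives). At least 2-fold higher was 1 gene. Plau, urokinase, had a bound of 0.94 ± 0.63, Procr, the protein C receptor of endothelium, was at 0.84 ± 0.26 and F3, tissue factor, at 0.72 ± 0.06. Procr was at 0.33 with normexp and at 1.14 with spike-in scaling.

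Receptors and clearance partners of the member proteins were near their control levels. Of 18 measured genes 0 were at least 2-fold lower and 1 was higher, the protease-activated receptor gene F2rl1, which had a bound of 1.01 ± 0.54 and was at 0.08 with normexp. The median was 0.15. Stra6, which takes up retinol from Rbp4, was at 0.75 ± 0.13, and the fibrin and fibrinogen receptor subunit Itgb3 had a bound of 0.71 ± 0.56.

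Members that lie within a few genes of each other in GRCr8 were set beside the genes around them. The table's order places 13 members in 5 clusters, Hrg with Fetub and Ahsg, Afm with Alb on either side of Afp, Itih4 with Itih3 and Itih1, Fgg with Fga and Fgb, and Ambp with Orm1, which Kif12 and Col27a1 separate. All 13 were at least 2-fold lower, with a median of -4.87. Neighbours of other families in these clusters were near 0, such as Plrg1 (0.33) beside Fgb, Ankrd17 (0.34) beside Alb, Dnajb11 (0.31) beside Ahsg Nek4 (-0.16) beside Itih1 and Kif12 (-0.47) beside Ambp. Over all members, 126 protein-coding genes lay within 2 places, 69 had a value, and their median was -0.05. Of these neighbours 8 were at least 2-fold lower (3.91% of all genes were). They were Kng2 (-1.62), Kng2l1 (bound -2.95), Albfm1 (-1.67), Afp (bound -1.53), Mug1l1 (-5.39), Serpina10 (bound -3.03), Serpina16 (bound -1.63) and Serpina3n (-5.10). Each is from the gene family of the member it lies near. Kng2, Kng2l1, Mug1l1 and Serpina3n have close copies, so their values are uncertain as to gene. With normexp Kng2 (-0.93) and Afp (-0.49) were under 2-fold, while Serpina10 (-1.21) and Serpina3n (-3.96) were not. At least 2-fold higher were Cyp4v3 (bound 1.72), near Klkb1, and Cep55 (1.05), near Rbp4.

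**Figure D4:**
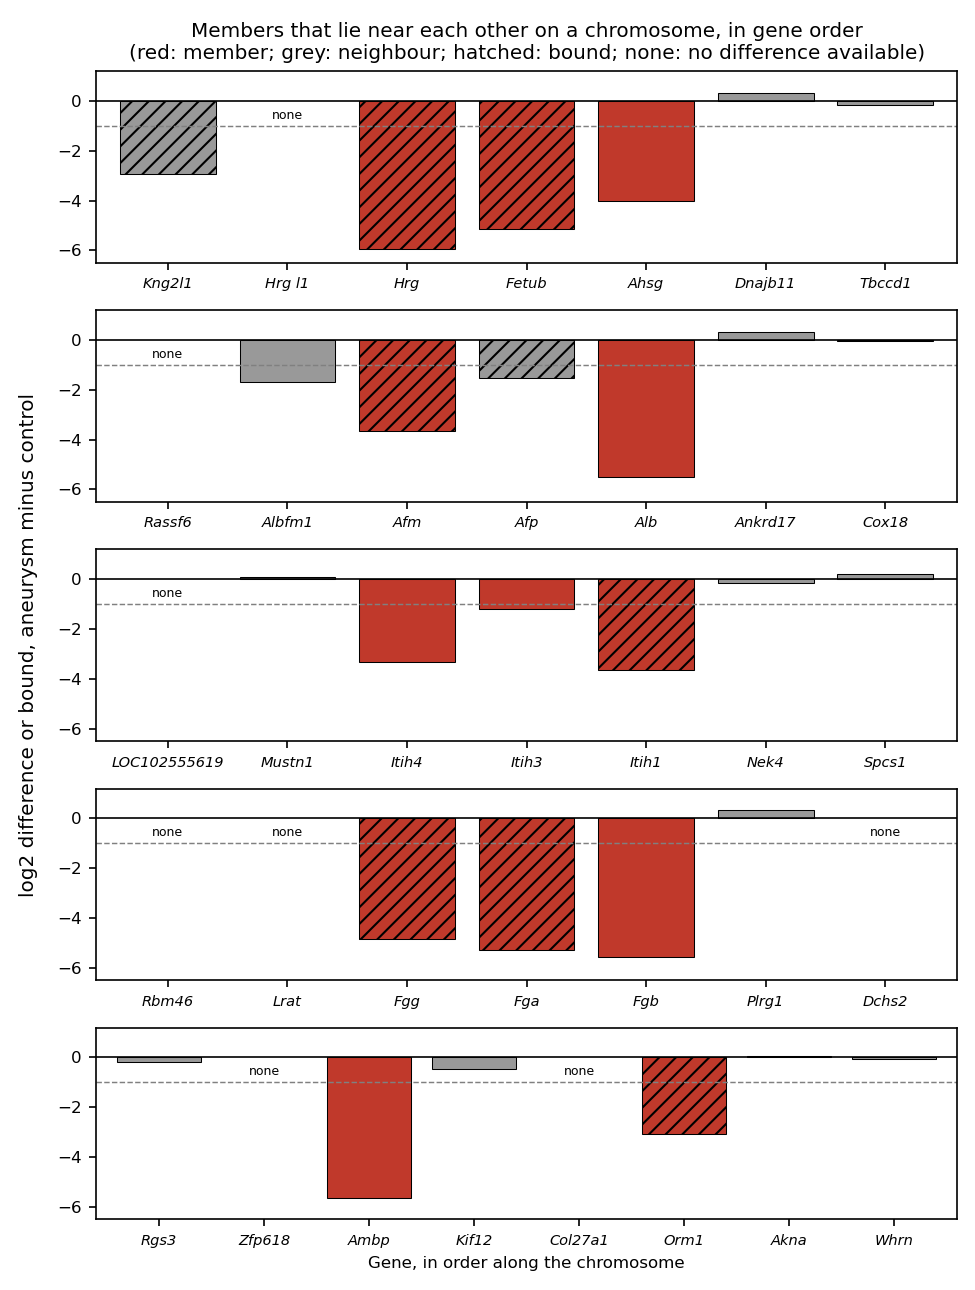
Log2 difference or bound (y axis, aneurysm minus control) of members (red) and their neighbours (grey) in the 5 clusters, in gene order along the chromosome; hatched bars are bounds and genes without a value are marked none. Red bars run from -5.96 for Hrg to -1.20 for Itih3, while Plrg1, Ankrd17, Dnajb11 and Nek4 lie within 0.34 of 0.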

How the data were processed

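Total RNA of 1 control arterial wall and 1 aneurysm was hybridised to 1 slide of one-colour Agilent arrays and read in 1 scan, per the file headers. The deposited values are processed spot intensities on a linear scale, made by the authors with Feature Extraction 10.10.1.1 on a design annotated on rn4, per the file headers. The 75th percentile of the 58717 spots other than controls (621 and 801) was set to 0 on a log2 scale. Spots marked as outliers (484 and 573) were dropped before averaging per probe. Probes were named from their accession through a RefSeq table of GRCr8, and each gene was read from 1 probe, the brightest of those well above background on either array. Spot errors came from spot SDs pooled over 20 bins of signal. Other deposited columns hold flags, and the authors' median spot and background intensities, used for an added normexp setting (limma 3.58.1, offset 50). The planned normexp used mean signals where the files held them; they did not, so it was run on the processed signal.

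Named genes are the 39 members, up to 4 genes per list with the largest difference, and neighbours of clustered members; genes outside this rule are marked in the text or belong to small counts, and some genes that it covers are not reported here. Members and lists were chosen with earlier results of these data known. The code was tested on simulated arrays. The number of arrays limits the precision. Alternatives changed the background correction, scaling, dim filter, probe rule, outlier spots and fold threshold.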

Additional observations from a re-analysis of the deposited data

How the results depend on the processing

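All 30 members at least 2-fold lower stayed below 0 under each of the 10 alternatives that gave them a value, and 26 stayed at least 2-fold lower under all of these. The count of lower members was 19 when only genes well above background on both arrays were kept, because fewer members were tested; it was 27 to 32 under other normalizations, filters and probe rules, 32 at 1.5-fold and 23 at 4-fold. The median of the 36 measured members, -3.87, was -2.18 with normexp on the processed signal, -1.95 with normexp on the median signals (added after the data were seen), -3.57 with spike-in scaling and -3.34 with genes above background on both arrays. Spike-in scaling moves all genes alike, to a median of 0.30. Genes of the other lists at least 2-fold lower numbered 48, and 30 and 28 with these normexp settings, 27 with genes above background on both arrays and 31 at 4-fold. The sign turned under some alternative for Lcat and Serpind1. Dim genes had smaller values with normexp. No other offset was run, so the part of the offset was not separated from the rest of the correction. The floor sets the bounds of Fgg, F9, Afm and Orm1, which equal the largest difference it allows for their control levels. No paired analysis was possible because each group has 1 array.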

Other observations

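Some genes of the hepatocyte lists and receptor list, chosen here after their values were seen, did not share the lower values of the members. Asgr1 and Asgr2, which encode the asialoglycoprotein receptor of hepatocytes, were well above background on both arrays, Asgr1 at 0.46 in control wall and 0.60 in the aneurysm (0.13 ± 0.06) and Asgr2 at -1.01 and -0.51 (0.50 ± 0.09). Among secreted proteins, Vtn, which encodes vitronectin, was at 3.92 and 4.08 (0.16 ± 0.05), Cp, ceruloplasmin, at 1.36 and 1.18 (-0.18 ± 0.06) and A2m, the rat acute phase protease inhibitor alpha-2-macroglobulin, at -0.21 and 0.10 (0.31 ± 0.07). Igfbp1 was at -2.67 and -2.91 (-0.24 ± 0.16). Lrg1, leucine-rich alpha-2-glycoprotein, which endothelium also makes, was the 1 gene of the other plasma protein list at least 2-fold higher, at 2.80 and 3.84 (1.04 ± 0.06). With 1 array per group none of these values has a replicate check.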
